A study of Mus musculus with 4 samples.

Results

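The 9 genes described here, Il1a, Il1b, Il6, Tnf, Inhba, Gdf15, Il10, Il1rn and Osm, encode inflammatory cytokines of myeloid cells, and they were taken by gene symbol from the 31053 genes listed for each library. All 9 were found. They had been picked with earlier results of these libraries in view, so the levels and ratios below are descriptions and no test was run on them. Raw counts of unique molecular identifiers (UMIs, one per captured mRNA molecule) were followed across alveolar macrophages, monocytes, neutrophils, dendritic cells (DCs) and lymphocytes, and by genotype and treatment.

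The cells came from lungs of C57BL/6 mice. Every animal carried floxed Ift20 (Ift20 f/f), and KO animals carried CD4 cre in addition, a driver that is active in developing T cells including the precursors of CD8 T cells. Mice were given DPBS, a buffered saline, or papain, a plant protease that serves as an airway allergen. It was given intranasally at 25 µg on 3 consecutive days, the challenge followed on day 14 and lungs were taken on day 15. Live cells positive for CD45.2 and negative for 7-AAD were sorted, and 1 single-cell library with 10x 3′ chemistry was made for each of DPBS WT (Ift20 f/f, DPBS), DPBS KO (Ift20 f/f CD4 cre, DPBS), Papain WT (Ift20 f/f, papain) and Papain KO (Ift20 f/f CD4 cre, papain). The labels give neither the age of the mice nor how many went into a library. With 1 library per group there are no replicates, no p-value can be given, and each ratio compares 2 libraries rather than 2 conditions. All intervals are 95% intervals that cover counting error only.

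In the lung, alveolar macrophages are the resident phagocytes of the air spaces, whereas monocytes and neutrophils enter from the blood. Danger signals activate transcription factors of the NF-κB family in these cells, which raise the genes for IL-1α, IL-1β, IL-6 and TNF. IL-1α and IL-1β act through one receptor, and the antagonist encoded by Il1rn occupies that receptor without signalling. IL-6 and oncostatin M (Osm) share the receptor subunit gp130, activin A (a dimer of the Inhba product) and GDF15 belong to the TGF-β superfamily, and IL-10 restrains the expression of the other cytokines.

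The 9 genes lie on 7 chromosomes that include a pair of neighbours. On GRCm38 Il1a (chr2:129299610-129309972, minus strand) and Il1b (chr2:129364570-129371139, minus strand) are separated by 54.6 kb, and Il1rn lies elsewhere on the same chromosome (chr2:24336853-24351494, plus strand). The others are Il10 (chr1:131019845-131024974, plus strand), Il6 (chr5:30013114-30019981, plus strand), Gdf15 (chr8:70629393-70632456, minus strand), Osm (chr11:4236420-4241026, plus strand), Inhba (chr13:16011851-16031621, plus strand) and Tnf (chr17:35199381-35202007, minus strand). All are protein-coding. Promoter sequences from RefSeq on GRCm38.p6 were matched for 7 members, all but Il10 and Osm.

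The following are the 250 bases before the start site of the 3 members with a matched promoter whose level in papain-treated WT alveolar macrophages was more than 2-fold that in DPBS-treated ones, and of Tnf, whose level was not. Each is written 5′ to 3′ in the direction of the gene, and capitals mark matches to the NF-κB motif, here GGG and CC with any 5 bases between, on either strand.
Il1b, chr2:129371140-129371389, minus strand: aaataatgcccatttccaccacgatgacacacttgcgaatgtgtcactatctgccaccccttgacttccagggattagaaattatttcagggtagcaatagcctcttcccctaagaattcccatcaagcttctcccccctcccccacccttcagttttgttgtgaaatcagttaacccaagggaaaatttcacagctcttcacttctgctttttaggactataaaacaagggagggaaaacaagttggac
Il6, chr5:30012864-30013113, plus strand: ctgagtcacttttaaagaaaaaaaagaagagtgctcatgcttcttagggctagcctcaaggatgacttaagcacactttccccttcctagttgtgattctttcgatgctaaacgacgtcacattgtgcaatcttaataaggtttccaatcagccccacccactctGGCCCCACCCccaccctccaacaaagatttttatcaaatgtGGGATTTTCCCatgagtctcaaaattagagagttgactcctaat
Inhba, chr13:16011601-16011850, plus strand: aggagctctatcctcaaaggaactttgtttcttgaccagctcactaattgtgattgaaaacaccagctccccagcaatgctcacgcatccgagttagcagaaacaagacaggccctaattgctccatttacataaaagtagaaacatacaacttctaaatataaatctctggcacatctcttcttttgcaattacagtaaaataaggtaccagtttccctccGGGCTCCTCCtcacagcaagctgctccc
Tnf, chr17:35202008-35202257, minus strand: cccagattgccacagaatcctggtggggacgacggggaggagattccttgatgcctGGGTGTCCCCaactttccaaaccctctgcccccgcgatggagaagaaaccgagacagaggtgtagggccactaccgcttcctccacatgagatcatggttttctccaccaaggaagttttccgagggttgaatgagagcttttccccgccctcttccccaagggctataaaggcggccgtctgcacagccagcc

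The Il6 window held 3 overlapping or nearby matches, which began 85, 44 and 43 bases before the start site, whereas Inhba had 1 match 28 bases before it and Tnf had 1 position matched on both strands 194 bases before it and another 29 bases after the start. The Il1b window had no match, and its only hit among the motifs searched was the TATA box letters TATAAA at 31 bases before the start. Il1a also lacked the NF-κB letters but held the AP-1 motif TGANTCA at 12 bases before its start and TATAAA at 32 bases. Of all 32851 promoters of the same length (250 bases before to 50 after the start), 50.8% held the NF-κB motif, 7.81% TGANTCA, 13.6% TATAAA and 3.97% the C/EBP-ATF motif TGATGNAA, on either strand. No member promoter held TGATGNAA. A match is a run of letters and not a binding site, and the presence or absence of these letters did not separate Il1b, Il6 and Inhba from Tnf.

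The WT libraries held 8552 (DPBS) and 8444 (papain) barcodes and the KO libraries 5946 and 5863, with 53854420 to 75675956 UMIs per library, and 5430 to 7575 cells per library were kept. Between 7 and 16 barcode sequences were shared by any 2 libraries. Cells were clustered and named by marker genes, and the ending "-like" records that the names come from clusters. Alveolar macrophage-like (AM-like) cells were clusters 2, 7 and 15, in which all 10 AM markers were detected in 53.4% to 99.9% of cells. The cells of this class numbered 1378 and 1194 in DPBS WT and DPBS KO and 850 and 520 in Papain WT and Papain KO, and lists of 4 values keep that order. There were 650, 569, 884 and 551 monocyte-like cells, 120, 109, 350 and 232 neutrophil-like cells, 43, 44, 99 and 42 DC-like cells and 4527, 3050, 4409 and 3508 lymphocyte-like cells. Clusters 14, 16 and 20, with markers of more than 1 class, were left unnamed, and so was cluster 22, whose best score was low. Cluster 5 (577, 255, 261 and 329 cells) scored best for T cells and was led by genes such as Cd8a and Cd8b1. It was left unnamed by the rule on leading genes, so these cells are missing from the lymphocyte-like and T-like counts and levels. The level of a gene is its CPM, its UMIs per 1000000 UMIs summed over the cells of a class. In such sums, fewer cells with the transcript and less transcript per cell cannot be told apart, so shares of cells with a UMI are added where they matter.

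Ift20, the deleted gene, was checked first. In T-like cells it stood at 58.4, 21.4, 59.6 and 19.8 CPM, so both libraries labelled KO were lower, and in AM-like cells at 55.6, 57.9, 62.4 and 56.2 CPM. A 3′ count can include a transcript that has lost internal exons.

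The 9 genes differed in where their UMIs lay. Over the 4 libraries AM-like cells held 88.3% of the Gdf15 UMIs, 73.4% of those of Il1rn, 70.7% of Osm, 69.9% of Il1a, 58.9% of Tnf and 57.9% of Il6. The AM-like share was lower in both papain libraries than in both DPBS libraries for each of these 6 genes. It was 84.4%, 84.4%, 55.5% and 53.4% for Il1a and 71.5%, 68.7%, 46.4% and 47.5% for Tnf, so that in papain libraries AM-like cells did not hold most Tnf UMIs. Il1b was spread over several populations. Neutrophil-like cells held 32.9%, 24.5%, 38.6% and 41.5% of its UMIs and monocyte-like cells 17.1%, 30.2%, 13.4% and 15.0%, so that the order of these classes was the other way round in DPBS KO. For Inhba AM-like cells held 70.9%, 47.9%, 28.2% and 33.9%, and unnamed cluster 16, described later, held 9.7%, 44.7%, 56.7% and 47.5%. Il10 lay mainly outside the myeloid classes, since lymphocyte-like cells held 55.9% of its UMIs over the 4 libraries and AM-like cells 6.4%.

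**Figure D1:**
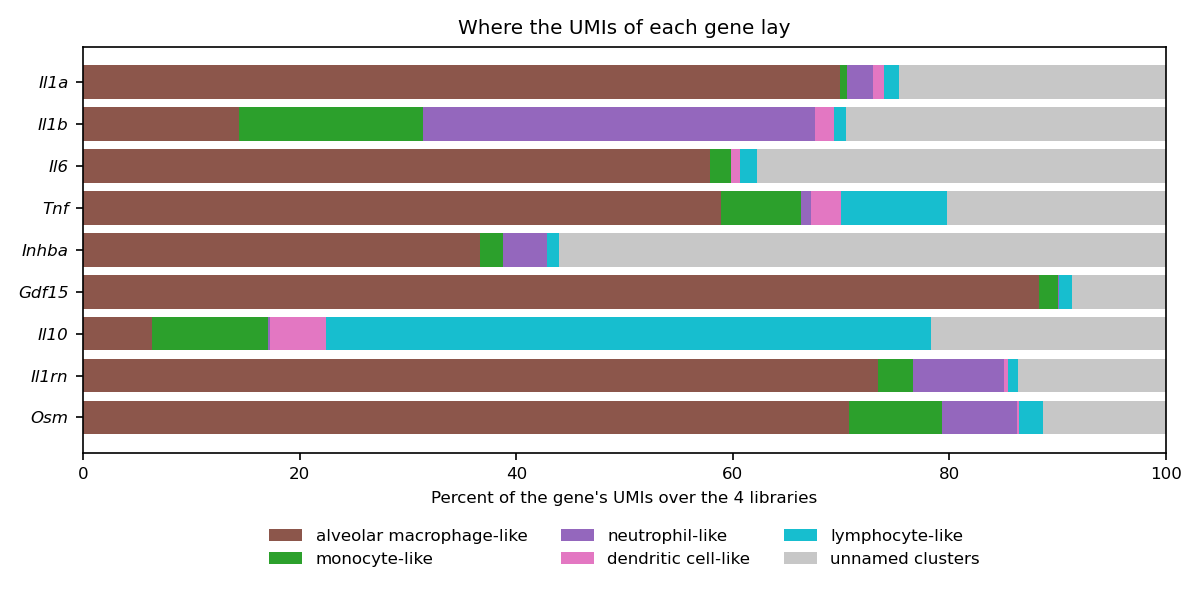
Horizontal bars give, for each of the 9 genes, the percent of its UMIs (x axis, all 4 libraries together) that lay in each of 5 -like cell classes or in unnamed clusters. AM-like cells hold most UMIs of 6 genes, up to 88.3% for Gdf15, whereas Il1b is spread over neutrophil-like (36.2%) and several other populations and Il10 lies mainly in lymphocyte-like cells (55.9%).

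Levels as CPM gave another order among the 5 classes, with unnamed clusters left aside. Il1b was highest in neutrophil-like cells of every library, with 19520.4, 12908, 16078 and 16349 CPM, and all neutrophil-like cells had at least 1 Il1b UMI. Monocyte-like cells followed with 761, 994, 831 and 912 CPM, DC-like cells with 529, 544, 581 and 732 CPM, AM-like cells with 228, 115, 511 and 253 CPM and lymphocyte-like cells with 12.3, 11.1, 19.2 and 16.3 CPM. Monocyte-like cells stood above DC-like cells in all 4 libraries, and DC-like above AM-like cells in all 4. In B-like cells, which should lack the transcript, 5.2%, 5.35%, 10.4% and 9.72% of cells had an Il1b UMI at a median depth of 3881, 4227.5, 4386 and 4776 UMIs, against 47.2%, 43.3%, 60.2% and 50.8% of AM-like cells at 18787, 19097.5, 16753.5 and 19722 UMIs. After thinning each cell to 1000 UMIs the B-like shares were 1.34%, 1.1%, 2.48% and 2.13% and the AM-like shares 12.6%, 8.38%, 21.8% and 12.3%, so the AM-like share lay above this background in each library.

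Il1a, the gene next to Il1b, had another distribution. It was at 88.5, 81.8, 124 and 82.5 CPM in AM-like and 98.8, 128, 52.9 and 89.5 CPM in neutrophil-like cells, with only 44 to 78 UMIs behind the latter values, and the order of these classes differed between libraries. It was at 35.1, 38.6, 20 and 26.7 CPM in DC-like cells, and at 1.32, 3.45, 3.07 and 3.36 CPM in monocyte-like cells. Thus monocyte-like cells, which had more Il1b in CPM than AM-like cells, had far less Il1a in every library. Il1rn, the antagonist, was highest in neutrophil-like cells at 573, 679, 459 and 659.6 CPM, followed by AM-like cells at 198, 191, 174 and 184 CPM, and was at 19.2, 24.0, 28.2 and 22.8 CPM in monocyte-like cells. Neutrophil-like cells were far shallower than AM-like cells, at a median of 3250.5, 2962, 3132.5 and 3325 UMIs. An order in CPM, here and for Osm below, need not hold per cell.

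Osm followed the same order as Il1rn in these 3 classes. It was at 865, 702, 804 and 611 CPM in neutrophil-like, 268, 289, 364 and 274 CPM in AM-like and 88.6, 111, 125 and 87.7 CPM in monocyte-like cells, and at most 21.4 CPM in DC-like and lymphocyte-like cells. Among the 5 classes Il6, the other gp130 cytokine, was highest in AM-like cells, with 19, 13.5, 69.9 and 38.5 CPM. It was at 13.7, 1.43, 9.68 and 6.95 CPM in DC-like and 4.13, 0.908, 4.05 and 1.77 CPM in monocyte-like cells, and neutrophil-like cells had 0, 0, 1 and 1 UMIs of it. Unnamed cluster 14, described later, had more Il6 in CPM than AM-like cells in every library but Papain WT. The 9 Il6 UMIs in DPBS WT DC-like cells leave an interval of 6.27 to 26.0 CPM, which includes the AM-like level. The 0 UMIs allow up to 6.59 CPM in the DPBS WT and 8.7 CPM in the DPBS KO neutrophil-like cells.

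Tnf was detected in all 5 classes of every library. AM-like cells were at 126, 101, 134 and 156 CPM, DC-like cells at 194, 131, 77.4 and 114 CPM, monocyte-like cells at 48.8, 40.7, 43.4 and 48.6 CPM and lymphocyte-like cells at 14.5, 17.3, 14.0 and 16.9 CPM. DC-like cells were above AM-like cells in both DPBS libraries and below them in both papain libraries, and a single DC-like cell of DPBS WT held 58 of its 127 Tnf UMIs. Gdf15, a stress-induced cytokine, was the member with the highest AM-like level, at 787, 852, 682 and 575 CPM against 44.3, 81.5, 23.1 and 40.0 CPM in monocyte-like cells and at most 20.3 CPM in the other 3 classes. Inhba, the activin A subunit, reached only 4.4, 6.51, 19.7 and 7.12 CPM in AM-like and 28.5, 8.7, 30.6 and 18.4 CPM in neutrophil-like cells, the latter from 3 to 37 UMIs. No Inhba UMI was found in the DC-like cells of any library, which allows up to 4.57, 4.29, 1.94 and 3.48 CPM.

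Il10 was low throughout. It was at 10.7, 2.86, 16.8 and 12.7 CPM in DC-like cells (25 of the 26 UMIs in Papain WT came from 1 cell), 2.57, 1.33, 9.22 and 5.07 CPM in lymphocyte-like cells, 3.64, 2.91, 4.79 and 3.18 CPM in monocyte-like cells and 0.564, 0.699, 1.6 and 0.285 CPM in AM-like cells. Within the lymphocyte-like cells it was highest in plasma-like cells, at 3.62, 9.87, 24.6 and 20.5 CPM. That class is a cluster led by Igha and Jchain whose 7 markers were detected in only 15.0% to 68.2% of its cells.

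**Figure D2:**
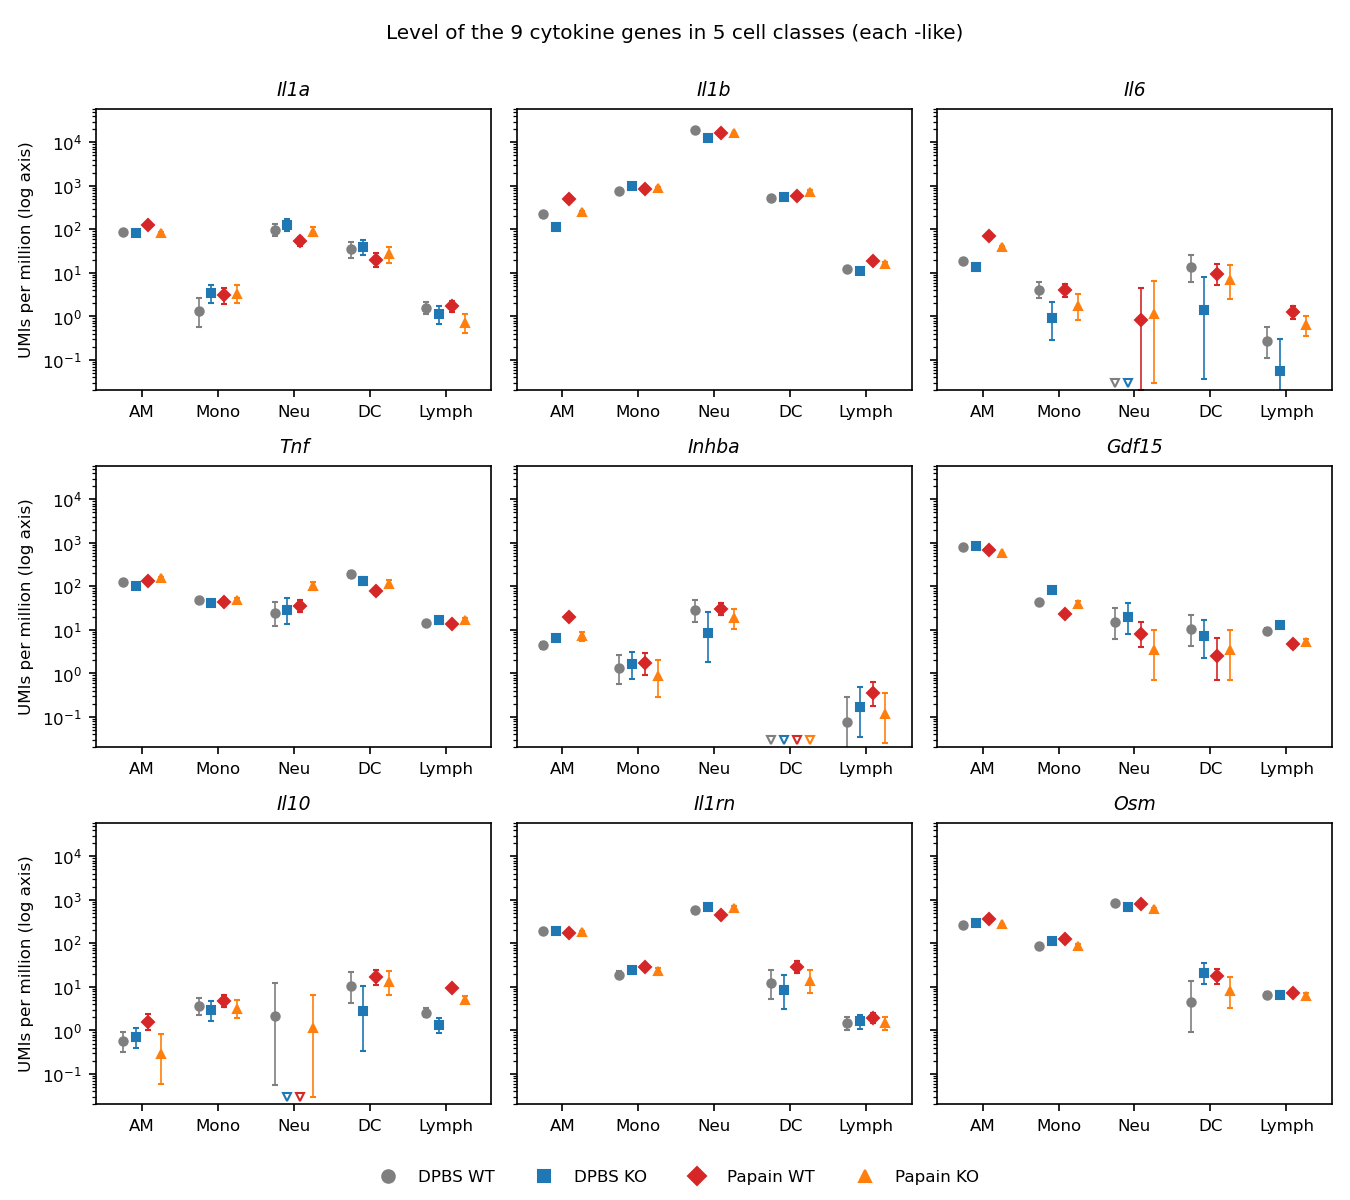
Each panel gives the level of 1 gene in CPM (log axis) in AM-like, monocyte-like, neutrophil-like, DC-like and lymphocyte-like cells, with 1 point per library, exact Poisson 95% intervals as bars and open triangles for libraries with no UMI. Il1b in neutrophil-like cells (12908 to 19520.4 CPM) stands far above every other value, and Gdf15 is highest in AM-like cells of every library (575 to 852 CPM).

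After papain in WT mice, AM-like cells had higher levels of Inhba, Il6 and Il1b. Inhba was at 19.7 CPM (95% interval 17.5 to 22.1) in Papain WT against 4.4 CPM (3.64 to 5.27) in DPBS WT, a log2 ratio of 2.16 (1.85 to 2.49). Il6 was at 69.9 against 19 CPM, a log2 ratio of 1.88 (1.73 to 2.04), and Il1b at 511 against 228 CPM, a log2 ratio of 1.16 (1.11 to 1.21). Il10 was also past 2-fold (log2 ratio 1.5, 0.50 to 2.55), but on 23 against 15 UMIs, of which 7 in each library came from a single cell. These 4 of 9 members were past 2-fold and all were higher in Papain WT, where 4.21% of the 11791 genes with at least 20 UMIs over both libraries were past 2-fold in either direction and 2.75% were higher. A member with few UMIs in the lower library could pass the minimum of 20 only through the higher one, so these counts are given as descriptions. The median log2 ratio of the 9 was 0.48 and that of all these genes −0.03. Il1a (0.48) and Osm (0.44) were higher by less than 2-fold, Tnf was nearly level (0.09), and Gdf15 (−0.21) and Il1rn (−0.18) were slightly lower.

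In KO mice the same comparison gave higher Il6 and Il1b but not Inhba. Il6 was at 38.5 CPM in Papain KO against 13.5 CPM in DPBS KO (log2 ratio 1.51, 1.29 to 1.73) and Il1b at 253 against 115 CPM (1.14, 1.06 to 1.22). Inhba was at 7.12 against 6.51 CPM (0.13, −0.29 to 0.54) and Il1a at 82.5 against 81.8 CPM. Tnf was at 156 against 101 CPM (0.63, 0.54 to 0.73), and Gdf15 at 575 against 852 CPM (−0.57, −0.61 to −0.52). Of the 8 members with enough UMIs 2 were past 2-fold, both higher, against 4.07% of 11610 genes in either direction and 2.82% higher. The ratio for Il1b was close to that in WT in these classes, but not in classes made without integration, where it was 0.43 in WT and 1.16 in KO. The level in Papain KO (253 CPM) was close to the DPBS WT level (228 CPM).

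Between the genotypes, no member was past 2-fold in DPBS, where 1.85% of 11946 genes were. Il1b came nearest, and passed 2-fold under some of the alternatives, at 115 CPM in DPBS KO against 228 CPM in DPBS WT (log2 ratio −0.99, −1.06 to −0.93), and Il6 had a log2 ratio of −0.49 (−0.69 to −0.28), which became 0.064 when each cell was thinned to 2000 UMIs. Inhba was higher in the DPBS KO library (0.56, 0.21 to 0.93). After papain, Inhba was at 7.12 CPM in KO against 19.7 CPM in WT (−1.47, −1.86 to −1.1), Il1b at 253 against 511 CPM (−1.01, −1.08 to −0.95) and Il10 had 3 against 23 UMIs (−2.49, −4.87 to −0.77). These 3 of 9 were past 2-fold lower, against 3.38% of 11349 genes in either direction and 1.83% lower. The Il1b interval includes a 2-fold difference, and Il10 passed the UMI minimum only through Papain WT, where it was high, so its place in the count carries no weight. Il6 (−0.86), Il1a (−0.59) and Osm (−0.41) were lower by less than 2-fold, and Tnf (0.22) and Il1rn (0.08) were not lower.

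**Figure D3:**
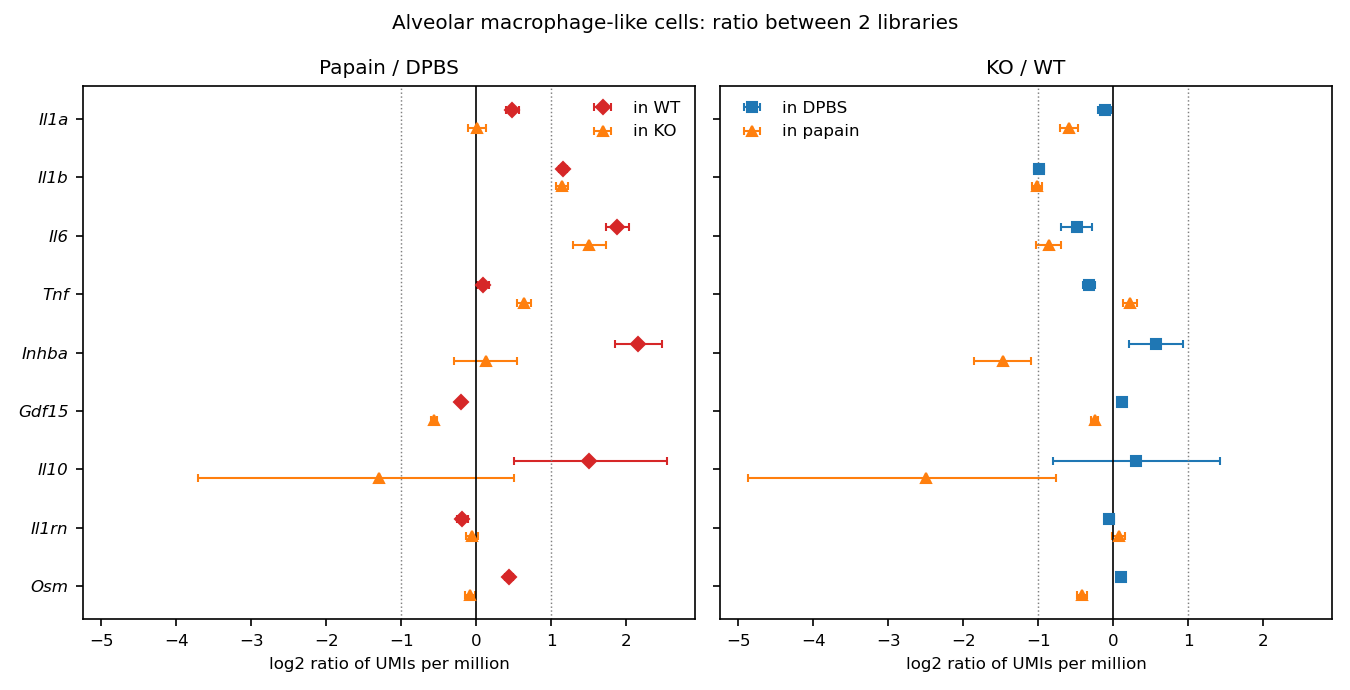
Points give the log2 ratio of CPM in AM-like cells (x axis) for the 9 genes, papain over DPBS on the left and KO over WT on the right, with exact 95% intervals for counting error as bars and dotted lines at a 2-fold difference. Inhba, Il6 and Il1b lie beyond the right dotted line in WT (2.16, 1.88 and 1.16), and Inhba lies on opposite sides of 0 in the genotype comparisons (0.56 in DPBS and −1.47 in papain, the latter 0.15 without integration). Il10, on few UMIs, also lies beyond the right dotted line in WT.

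The genotype ratios after papain depended on where the border of the AM-like class was drawn. When the libraries were clustered without integration, 204 of the 850 AM-like cells of Papain WT (24.0%) left the class, against 3, 51 and 24 cells of DPBS WT, DPBS KO and Papain KO. The 204 cells had Il1b at 1317 CPM, Il6 at 175 CPM and Inhba at 57.8 CPM, whereas the 646 cells kept had 310.5, 43.8 and 10.3 CPM. In those classes the KO over WT log2 ratio after papain was −0.27 for Il1b, −0.18 for Il6 and 0.15 for Inhba, so that the Inhba ratio changed sign, and Il10 was no longer higher in Papain WT than in DPBS WT (−0.092). The papain over DPBS ratios in WT kept their direction for Il1b, Il6 and Inhba under all alternatives tried, with ranges of 0.43 to 1.57, 1.17 to 2.51 and 1.09 to 3.33, and in KO for Il1b (1.07 to 1.70) and Il6 (1.46 to 1.94).

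Other genes of the AM-like cells also differed between the libraries. Chil3, an AM marker that encodes a chitinase-like protein, was at 12086, 13037, 30980.4 and 13738 CPM. The summed level of all 10 AM markers was 17453, 18196, 36053 and 18906 CPM, highest in Papain WT and mostly Chil3. Ear1, Pparg, Siglecf, Atp6v0d2, Plet1 and Fabp1 were lower in Papain WT than in DPBS WT, with Fabp1 at 362 against 576 CPM. Marco, Krt79 and Ctsk were higher, with Ctsk at 552 against 335 CPM. The 9 interstitial macrophage markers summed to 67.1, 53.9, 187 and 60.1 CPM, 8, 7, 7 and 7 of them with a UMI, mostly from Apoe (43.5, 32.2, 139.9 and 28.0 CPM), while the defining marker Folr2 was at 0 in all 4 and C1qa at most 0.975 CPM. The 7 classical monocyte markers, all detected, summed to 539, 504, 1002 and 857 CPM, mostly Fn1, and the 8 mature DC markers to 62.2, 73.1, 194 and 82.6 CPM, with 8, 8, 8 and 7 detected and Ccl17 at 1.28, 6.12, 109 and 2.75 CPM. The 10 neutrophil markers summed to 107, 138, 113 and 129.7 CPM, with Ly6g at 0 in all but DPBS KO, and were not highest in Papain WT. In AM-like cells there were 12.7, 4.11, 20.9 and 9.63 Il1b UMIs per S100a8 UMI, against 0.547, 0.396, 0.431 and 0.496 in neutrophil-like cells and 4.19, 4.08, 2.68 and 4.49 in B-like cells. The 12 dissociation and heat shock genes summed to 10739, 8219, 8394 and 8653 CPM. The part of neutrophil RNA and of the interstitial, monocyte and mature DC markers in the cytokine ratios was not tested.

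The higher levels of Il1b and Il6 lay in part of the AM-like cells. Cluster 2 (684, 756, 523 and 263 cells), led by genes such as Ereg and Mertk, had Il1b at 324, 146, 731 and 432 CPM and Il6 at 28.0, 19.8, 110.4 and 70.8 CPM. Cluster 7 (521, 290, 248 and 214 cells), led by genes such as Kcnk3 and Car4, had Il1b at 102, 62.4, 107 and 53.9 CPM and Il6 at 1.74, 1.35, 1.47 and 1.44 CPM. In cluster 7 the log2 ratio of papain to DPBS for Il1b was 0.07 (WT, −0.10 to 0.24) and −0.21 (KO, −0.46 to 0.04), against 1.18 (1.12 to 1.23) and 1.56 (1.48 to 1.65) in cluster 2. Within cluster 2 the KO over WT log2 ratio was −1.15 (DPBS) and −0.76 (papain) for Il1b and −0.50 and −0.64 for Il6, and Inhba was at 6.54, 6.96, 26.1 and 12.5 CPM. Cluster 15 (173, 148, 79 and 43 cells), led by genes of dividing cells, was at 211, 71.1, 409.9 and 165 CPM for Il1b.

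Il1a, Tnf, Osm, Inhba and Gdf15 were also higher in cluster 2 than in cluster 7 of every library. Il1a was at 135, 98.3, 181 and 132 CPM in cluster 2 and 25.5, 40.0, 27.7 and 20.4 CPM in cluster 7, and Tnf at 194, 130.4, 191 and 246 against 38.8, 41.6, 44.3 and 49.8 CPM. Osm was at 357, 325, 501 and 405 CPM in cluster 2 and 156, 239, 128 and 106 CPM in cluster 7, and Inhba in cluster 7 was at 0.763, 1.73, 1.96 and 1.68 CPM. Il1rn was close in the DPBS libraries, at 208, 194, 201 and 219.8 CPM in cluster 2 and 194, 196, 142 and 155 CPM in cluster 7. Gdf15 was at 1098, 931, 829.6 and 753 CPM in cluster 2 and 303, 633, 415 and 285 CPM in cluster 7. Median depth was alike in clusters 2 and 7, between 16132 and 19600.0 UMIs per cell. The members had been kept out of the genes used for clustering, but genes that vary with them had not, so that the split is a description.

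In both papain libraries unnamed cluster 16 had higher Inhba and Il6 levels than any class or cluster described above. It scored best for interstitial macrophages (1.31) and next for alveolar macrophages (1.14), was led by Fstl1, Mmp12, Arg1, Timp1 and Inhba itself, and held 58, 51, 248 and 36 cells, so most of it came from Papain WT. Il1b was at 185, 184, 1407 and 2451 CPM, Il6 at 23.6, 6.68, 209 and 216 CPM, Tnf at 82.0, 74.8, 292 and 326 CPM and Il1a at 79.8, 78.8, 312 and 436 CPM. All 4 were thus several-fold higher in both papain libraries, with log2 ratios of papain to DPBS between 1.83 and 3.15 (WT) and between 2.13 and 5.02 (KO), and they were not lower in Papain KO than in Papain WT. The value of 5.02 was that of Il6 and rests on few UMIs, since cluster 16 of DPBS KO held 1.21% of the 413 Il6 UMIs of its library. Inhba was at 18.0, 186, 179.6 and 172 CPM, and 1 DPBS KO cell held 81 of the 139 Inhba UMIs of that library. Gdf15 was at 1262, 907, 738 and 1231 CPM and did not follow the other members. Il10 had 0, 0, 60 and 1 UMIs, a level in Papain WT at least 5.61-fold higher than in DPBS WT (against a floor of 3 counts over the cluster), and 44 of the 60 UMIs came from 1 cell. The number of cells of the cluster also differed, so Papain WT held 570 Inhba UMIs in this cluster and Papain KO 105.

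**Figure D4:**
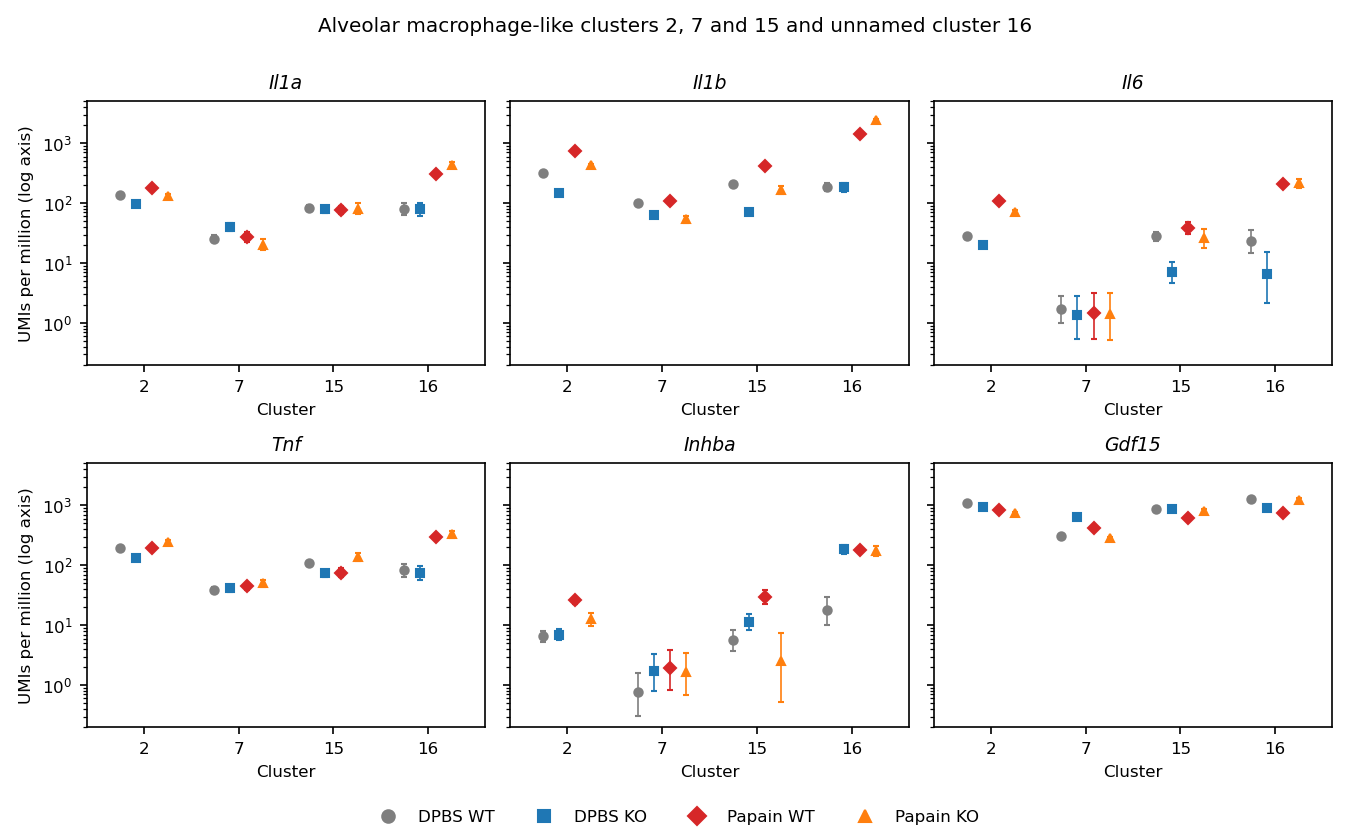
Panels give the level of 6 genes in CPM (log axis) in AM-like clusters 2, 7 and 15 and in unnamed cluster 16 (x axis), 1 point per library with exact Poisson 95% intervals. Il6 stays near 1 to 2 CPM in cluster 7 of every library but is at 110.4 and 70.8 CPM in cluster 2 and at 209 and 216 CPM in cluster 16 of Papain WT and Papain KO.

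Papain WT also had the largest share of AM-like cells with Il1a, Il1b, Il6, Inhba or Osm. Each AM-like cell was thinned to 5000 UMIs, which left out 10, 67, 53 and 1 shallower cells. Il1b was then detected in 29.0%, 23.0%, 43.8% and 28.1% of cells, with an interval of 40.3% to 47.3% for Papain WT. Il6 was detected in 4.75%, 5.15%, 10.8% and 7.13% and Inhba in 2.05%, 1.86%, 4.89% and 3.28%. The interval of the Papain WT share overlapped that of Papain KO for Il6 (8.72% to 13.2% against 5.07% to 9.69%) and for Inhba (3.50% to 6.63% against 1.92% to 5.19%). In B-like cells, without thinning, at most 0.427% had an Il6 UMI and at most 0.0949% an Inhba UMI. Shares and levels did not always run together, since Il6 and Il1a had a lower level but no lower share in DPBS KO than in DPBS WT, and Inhba the reverse. Osm was detected in 47.3%, 54.2%, 56.5% and 51.6%. Il1a was detected in 24.0%, 27.7%, 32.5% and 22.5% and Gdf15 in 65.1%, 76.4%, 66.5% and 54.3%, so that Gdf15 was seen in most AM-like cells of every library. At least 4 of the 9 members were detected in 24.9%, 25.1%, 34.3% and 23.5% of cells.

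**Figure D5:**
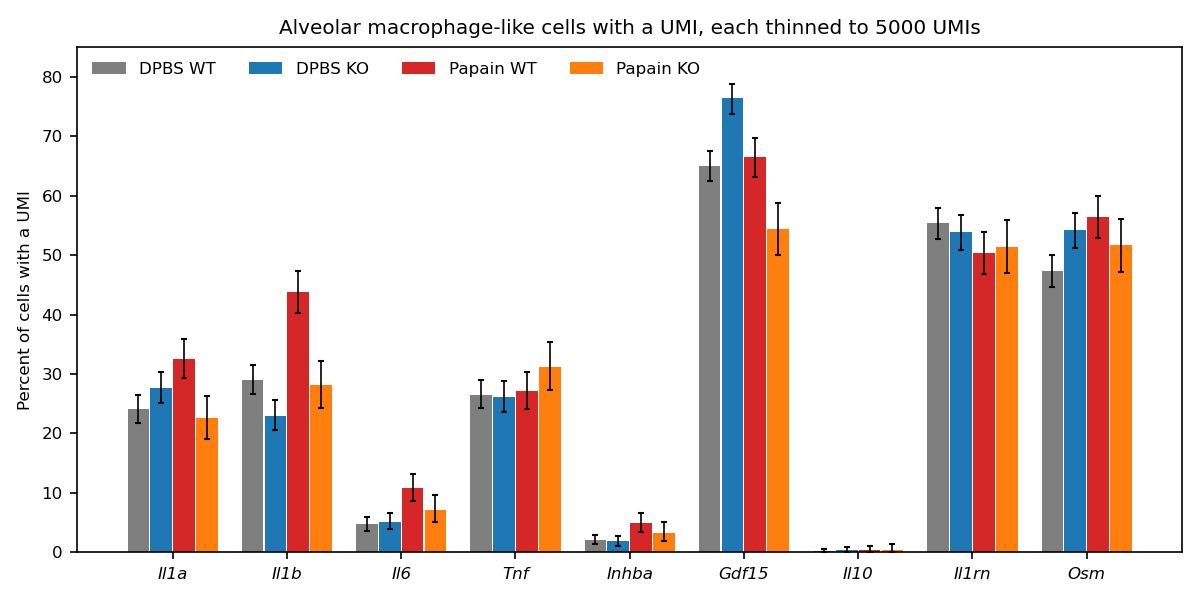
Bars give the percent of AM-like cells with at least 1 UMI of each gene (y axis) after each cell was thinned to 5000 UMIs, by library, with exact binomial 95% intervals. The Papain WT bar is highest for Il1a (32.5%), Il1b (43.8%), Il6 (10.8%), Inhba (4.89%) and Osm (56.5%), and Gdf15 is detected in 54.3% to 76.4% of cells.

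Before thinning, the tenth of AM-like cells with most Il1b UMIs held 76.4%, 71.9%, 70.4% and 77.2% of them, and deeper cells weigh more in such a share. After thinning, Il1b was detected in 23.0% to 43.8% of cells. Il6 was detected more often in cells with Il1b. In thinned cells, 10.1%, 9.27%, 18.6% and 15.1% of those with an Il1b UMI had an Il6 UMI, against 2.57%, 3.92%, 4.69% and 4.02% of those without. Il1rn differed less with Il1b, at 56.2%, 56.0%, 53.3% and 53.4% of cells with and 55.0%, 53.2%, 48.0% and 50.7% of cells without an Il1b UMI. It was detected more often in cells with an Il6 UMI, at 63.1%, 75.9%, 65.1% and 67.6% against 55.0%, 52.7%, 48.5% and 50.2% of those without.

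In monocyte-like cells Il1b differed by less than 2-fold in all 4 comparisons (log2 ratios from −0.12 to 0.39), and most members past 2-fold had few UMIs. Of the 9 tested in WT, only Il1a was past 2-fold after papain, on 25 against 8 UMIs, where 3.57% of 10355 genes were past 2-fold. In KO 1 of 7 was (2.55% of 9972 genes), namely Gdf15 at 40.0 against 81.5 CPM (log2 ratio −1.03, −1.27 to −0.79), and the WT ratio for this gene was −0.94 (−1.22 to −0.67). The AM markers summed to 644, 712, 1050 and 584 CPM in monocyte-like cells, and the part of free RNA from AM-like cells in these Gdf15 values was not tested. KO against WT in DPBS gave 2 of 8 past 2-fold (4.36% of 10000 genes), Il1a higher on 19 against 8 UMIs (lower when each cell was thinned to 2000 UMIs) and Il6 lower on 5 against 25. In papain 1 of 8 was (3.04% of 10319 genes), Il6 with 10 against 33 UMIs. Il1b was at 756, 969, 742 and 924 CPM in classical and at 771, 1035, 1018 and 892 CPM in nonclassical monocyte-like cells, so that both kinds carried it. Osm was higher in classical monocyte-like cells, at 102, 128, 154 and 106 CPM against 62.9, 83.8, 64.6 and 58.1 CPM.

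In neutrophil-like cells Tnf stood apart in 1 library. It was at 24.1, 29.0, 35.5 and 102 CPM, and 22 of the 89 UMIs in Papain KO came from 1 cell. It was the 1 member of 5 past 2-fold after papain in KO (log2 ratio 1.82, 0.87 to 2.92), where 7.22% of 4459 genes were, and the 1 of 6 past 2-fold between Papain KO and Papain WT (1.52, 0.98 to 2.08), where 4.89% of 5581 genes were. For papain in KO, Tnf reached the minimum of 20 only through Papain KO, so nothing is read from that count. Of the members tested for papain in WT (6 members, 7.56% of 5146 genes past 2-fold) and for KO against WT in DPBS (5 members, 6.2% of 3566 genes) none was past 2-fold. Il1b, the member with the highest level, had a log2 ratio of papain to DPBS of −0.28 (WT, −0.32 to −0.24) and 0.34 (KO, 0.29 to 0.39). Unnamed cluster 20, with neutrophil and monocyte markers, lay between those classes for Il1b, at 5967, 4854, 6308 and 5384 CPM.

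DC-like cells were few, and 3 to 7 members had enough UMIs for a ratio. The class joined type 1 conventional DC-like cells (23, 31, 45 and 32) and mature DC-like cells (20, 13, 54 and 10) in a mix that differed between the libraries, and its part in the ratios was not tested. Tnf was lower after papain in WT (77.4 against 194 CPM, log2 ratio −1.32, −1.69 to −0.95), but within 2-fold (−0.90) without the cell with most Tnf UMIs in each library. Il1rn (1.25, 0.15 to 2.55) and Osm (1.93, 0.23 to 4.29) were higher on 45 against 8 and 27 against 3 UMIs, and reached the minimum of 20 only through Papain WT. These are 3 of 7 members past 2-fold, where 9.02% of 7417 genes were, and nothing is read from that count. In KO Osm was the 1 of 4 past 2-fold (lower, 7 against 15 UMIs, 8.24% of 6325 genes), and it was higher instead when doublet calls were kept (log2 ratio 1.58) or cells were classed one by one (0.67). In KO against WT the counts were 0 of 3 in DPBS (8.11% of 5872 genes) and 2 of 7 in papain (9.59% of 7668 genes), Il1rn and Osm, both lower and with the same limit. Unnamed cluster 14, led by C1qa, Mgl2 and Cd209a and scoring for both type 2 conventional DCs and interstitial macrophages, held 106, 90, 249 and 128 cells and had more Il1b, at 1573, 2022, 1744 and 2221 CPM, and more Il6, at 59.8, 64.7, 56.3 and 78.5 CPM. Its Il1b and Il6 levels were within 2-fold between papain and DPBS in both genotypes, whereas Il1rn was at 53.5, 143, 190.3 and 74.1 CPM and Tnf at 214, 215, 73.6 and 256 CPM.

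Among lymphocyte-like cells both papain libraries had more Il10 than their DPBS counterparts, with 9.22 CPM in Papain WT against 2.57 CPM in DPBS WT (log2 ratio 1.84, 1.45 to 2.25) and 5.07 against 1.33 CPM in KO (1.93, 1.29 to 2.62). In T-like cells it was at 2.62, 1.1, 13.1 and 2.1 CPM, and 2.82% of Papain WT T-like cells had a UMI against 0.704% of Papain KO ones. The shares in B-like cells of the same libraries were 1.57% and 1.5%, so the Papain KO T-like share was below that in B-like cells. The KO over WT log2 ratio of Il10 in T-like cells after papain was −2.64 (−3.41 to −1.94), on 19 against 146 UMIs. The T-like clusters were mixed in different proportions, since cluster 11, led by Foxp3 and other genes, held 208, 144, 485 and 212 of the 1700, 1257, 1705 and 1279 T-like cells. The part of this mix in the Il10 ratio was not tested. Papain in WT gave 3 of 8 members past 2-fold (5.19% of 12787 genes), Il10 and Il6 higher and Gdf15 lower, of which Il6 and Gdf15 changed sign when cells were classed one by one, and papain in KO 2 of 7 (3.01% of 12368 genes), Il10 and Gdf15. Gdf15 was at 9.61, 12.7, 4.66 and 5.31 CPM in lymphocyte-like cells, where the summed AM markers were at 89.7, 98.5, 117 and 51.8 CPM and the AM-like cells of the library numbered 1378, 1194, 850 and 520. The part of free RNA in the Gdf15 values was not tested. KO against WT gave 0 of 7 in DPBS (3.2% of 12327 genes) and 1 of 8 in papain (3.59% of 12852 genes), Il1a with 18 against 52 UMIs.

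Genes past 2-fold in AM-like cells were also counted in the lists compared with the 9 cytokines. For papain in WT the share over all genes tested was 4.21%, and the list counts are not read as a contrast with the members. After papain in WT, none of 16 tested IL-1 system genes, 13 NF-κB feedback and mRNA decay genes, 4 IL-10 system genes, 8 integrated stress response genes and 12 dissociation and heat shock genes was past 2-fold, and the medians of their log2 ratios were 0.04, 0.18, 0.02, −0.01 and −0.50 against −0.03 over all genes. One gene was past 2-fold in each of the other lists, of 7 for IL-6 and OSM, 11 for TNF and 11 for activin and TGF-β. In the dissociation and heat shock list only 1 of the 12 log2 ratios was above 0. Hspa1a of that list was at 1473, 595, 764 and 688 CPM, highest in DPBS WT. Socs3, a feedback inhibitor of gp130 signalling, was at 8.88, 10.5, 20.1 and 19.3 CPM, higher after papain in both genotypes (log2 ratios 1.18 and 0.87). Traf1, a TNF receptor adaptor, was at 1.43, 2.32, 5.08 and 3.04 CPM, and Smad3, a transducer of activin signals, had 12, 11, 17 and 6 UMIs.

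The remaining named genes of these lists stayed within 2-fold in WT. Lif, another gp130 cytokine, was at 9.63, 9.48, 17.2 and 10.3 CPM, and the decoy receptor gene Il1r2 at 2.22, 4.54, 4.25 and 5.03 CPM. Slc7a11, a cystine transporter of the stress response, was at 85.4, 87.5, 131 and 107 CPM, and Tnfaip3, an inhibitor of NF-κB, at 137, 135, 178 and 148 CPM. In KO against WT, Il1r2 was the only IL-1 system gene past 2-fold in DPBS (higher), the heat shock list had 2 genes lower in DPBS, and after papain Fst, which encodes the activin inhibitor follistatin, was higher on 24 against 15 UMIs and Smad3 lower. All other lists had none past 2-fold in KO papain over DPBS or in KO over WT. The shares over all genes tested were 4.07% for papain in KO, and 1.85% (DPBS) and 3.38% (papain) for KO over WT.

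Each member's pattern was compared with that of all genes over 51 sums of cells (15 cell populations by library, at least 50 cells each), which share libraries and depth. The measure was Pearson's r of log2(CPM + 1), given as a description. Osm was most like Nlrp3 (r = 0.97), Mcemp1 (0.96) and Tnfaip2 (0.96), and Il1rn was most like Slc7a11 (0.97), Tnfaip2 (0.97) and Nlrp3 (0.97). Il1b was most like Ptafr (0.96), Gpr84 (0.96) and Zfp36 (0.96), and Il1a like Clec5a (0.92), Pip5k1c (0.90) and Il1rn (0.90), while its neighbour Il1b was not among the 3. Il6 was most like Spint1 (0.89), Anpep (0.88) and Mmp12 (0.88), Gdf15 like Slc48a1 (0.92), Tpp1 (0.91) and Zfp111 (0.91), Tnf like Hk2 (0.86), Mitf (0.85) and Camk1 (0.83), and Inhba like Bst1 (0.87), Dmxl2 (0.85) and Sdcbp (0.85). Il10 had no close companion, the nearest being Cacna1s (0.74), Gprc5a (0.71) and Flt3 (0.68).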

How the data were processed

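The authors deposited 1 matrix of raw UMI counts per library (10x 3′ v3 chemistry). Cell Ranger and mm10 are named in the submitters' processing notes, and the matrix headers give software 3.1.0. The annotation release is not given in the sources used here, and positions were taken from GENCODE M21 (GRCm38). Cells with more than 200 genes and under 15% mitochondrial UMIs were kept. Scrublet (scanpy 1.11.5) scores were used to remove the top-scoring barcodes at 0.8% per 1000 barcodes (585 and 283 in DPBS WT and DPBS KO, 570 and 275 in Papain WT and Papain KO), since the caller's own threshold marked only 0.0512% in Papain KO. Libraries were integrated in Seurat 5.3.0 (R 4.3.3) by CCA on 2000 variable genes, without the 9 members, the related gene lists, Ift20 and receptor segments, and clustered in 30 dimensions by Louvain at resolution 0.8.

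A cluster took a class name where its marker score (mean log2 ratio of detection shares, 2% added) was at least 1, at least 3 markers were detected in 10% of its cells, a second class scored under 50% of the best and the 10 leading genes did not go against it. The markers, the scoring rule, the members and the gene lists were chosen with earlier results of these data known. All 9 members were named, with up to 4 genes of each list with the largest papain to DPBS ratio in WT AM-like cells, the 3 genes most alike to each member, leading genes of clusters and Ift20. Chil3 and the other AM markers, Apoe, Folr2, Fn1, Ccl17, Ly6g and S100a8 were named after their values were seen.

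UMIs were summed per class and library (Python 3.11.15, numpy 2.4.6, pandas 2.3.3, scipy 1.17.1) and divided by the total of those cells. Levels carry exact Poisson intervals, shares of cells Clopper-Pearson intervals and ratios exact conditional binomial intervals, all at 95%, and these cover counting error only. A library at 0 was set to a floor of 3 counts. Ratios were taken for genes with at least 20 UMIs over both libraries, and 2-fold is the size past which a gene was counted. Only the ratios and their intervals were tested on simulated data, drawn for AM-like sums with counting error and no other spread. The clustering, naming and thinning steps were not tested in this way. As alternatives, TMM scaling (edgeR 4.0.16), per-cell means, removal of the top cell, thinning to 2000 UMIs, subtraction of the B-like level, doublet calls kept, stricter cell filters (500 genes and 10%), no integration, resolution 1.2, classes set cell by cell and a 5-UMI minimum were tried. Figures were drawn in matplotlib 3.10.9.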

Additional observations from a re-analysis of the deposited data

Results flagged for a closer look

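There were 90 possible pairs of ratios between the genotypes or between the treatments, some with too few UMIs for a ratio. Of these, 11 had opposite signs with both counting intervals clear of 0. With 1 library per group none of these differences was tested. Osm accounted for 5 of the 11 pairs, where the papain and genotype pairs of a class come from the same 4 levels and are not separate.

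In AM-like cells the log2 ratio of papain to DPBS for Osm was 0.44 in WT and −0.080 in KO, and the ratio of KO to WT was 0.11 in DPBS and −0.41 in papain. In monocyte-like cells the corresponding Osm values were 0.50 and −0.34 for papain and 0.32 and −0.51 for genotype. In DC-like cells Osm was at 1.93 in WT and −1.40 in KO for papain, on 3 to 27 UMIs per library, and the KO value was positive with doublet calls kept or classes set cell by cell.

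The KO to WT ratio in AM-like cells was −0.32 in DPBS and 0.22 in papain for Tnf, 0.56 and −1.47 for Inhba (the latter 0.15 without integration), and 0.11 and −0.245 for Gdf15. Tnf in DC-like cells had KO to WT ratios of −0.56 in DPBS and 0.55 in papain, and the former was −0.18 without the cell with most Tnf UMIs in each library, where 1 DPBS WT cell held 58 of 127 Tnf UMIs. For Il1b the papain to DPBS ratio was 0.13 in WT and −0.12 in KO in monocyte-like cells (−0.15 and 0.26 with classes set cell by cell, so with the signs exchanged), and −0.28 in WT and 0.34 in KO in neutrophil-like cells.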

How the results depend on the processing

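No paired analysis was possible because each group has 1 library, and for the same reason no replicate could be left out. Of 1401 recomputed values of 140 member ratios under 11 settings, 1207 stayed within the counting interval of the reported value, and the others lay outside it. In all 97 values, spread over 59 ratios, had the other sign. The reported interval was clear of 0 for 20 of these values, and the reported ratio was past 2-fold for 7. Without integration the AM-like papain ratio of Il10 in WT was −0.092 and the KO to WT ratio of Inhba after papain 0.15. With cells thinned to 2000 UMIs, Il1a in monocyte-like cells (KO to WT, DPBS) was −0.83. Osm in DC-like cells (papain in KO) was 1.58 with doublet calls kept and 0.67 with classes set cell by cell, which also gave −0.025 for Il6 and 0.36 for Gdf15 in lymphocyte-like cells (papain in WT). The causes were not tested.

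The median log2 ratio of the 9 members in AM-like cells for papain in WT was 0.61 with per-cell means, 0.835 with doublet calls kept, 0.27 without integration, 0.80 cell by cell and 0.84 with cluster 16 added, a setting chosen after seeing the data. For papain in KO it was 0.30 with doublet calls kept, 0.27 cell by cell and 0.32 with cluster 16. It was 0.064 for KO to WT in DPBS with thinned cells, and −0.24 for KO to WT in papain without integration. Members past 2-fold were 2 for papain in WT without integration. For KO to WT in papain they were 0 with thinned cells and 1 without integration. For KO to WT in DPBS they were 2 with thinned cells and 1 under TMM scaling, B-like subtraction, stricter filters, doublet calls kept, no integration, classes set cell by cell or cluster 16 added.

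With a 5-UMI minimum, genes past 2-fold in AM-like cells numbered 1337 and 1325 for papain in WT and KO and 951 and 1180 for KO to WT in DPBS and papain, against 496, 472, 221 and 384. Among the 5 classes, AM-like cells had the highest share of cells with a UMI for 5, 7, 7 and 7 members in the order of libraries used above, but for 2, 2, 3 and 3 once cells were thinned to 1000 UMIs. Depth limits Il10 in AM-like cells (3 to 23 UMIs), Il6 in neutrophil-like cells and most members in DC-like cells.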
